A study of Mus musculus with 10 samples.

Results

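Hard tissue forms where phosphate and calcium are brought together and the inhibitor of crystal growth, pyrophosphate, is removed. In all, 10 genes of this machinery were listed for description: the phosphatase genes Alpl and Phospho1, the pyrophosphate-forming enzyme gene Enpp1, the sphingomyelinase gene Smpd3, the sodium-phosphate cotransporter genes Slc20a1 and Slc20a2, the sodium-calcium exchanger genes Slc8a1, Slc8a3 and Slc24a4, and the sodium-bicarbonate cotransporter gene Slc4a4. A gene was included where the array annotation gives at least 1 probe set (a group of short probes for the same transcript) that names this gene and no other. This held for 8 of the 10, with 21 probe sets, out of 18193 genes in all. Phospho1 shares its probe set with another gene symbol, and Phospho1 and Enpp1 were not analysed here. Where a gene had several probe sets, that of the highest mean over the 10 arrays stands for it.

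In the continuously growing mouse incisor, odontoblasts of the dental mesenchyme deposit dentin, and ameloblasts of the adjoining epithelium deposit enamel. Tissue-nonspecific alkaline phosphatase, the product of Alpl, splits pyrophosphate into phosphate at the cell surface. Cotransporters carry phosphate into cells, sodium-calcium exchangers use the sodium gradient to move calcium out, and bicarbonate transport supplies base that buffers the acid released by crystal growth.

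The incisors came from 5 wild-type C57BL/6J mice at postnatal day 60, 2 weeks after the inferior alveolar nerve, which carries sensation from the lower teeth, had been cut out on 1 side. Dental mesenchyme of the operated side gave 5 arrays, called denervated here, and that of the unoperated side of such mice gave 5 contralateral arrays. The animals carried no transgene or mutation, both incisors sat in an operated animal, and no sham operation is among the samples, so that loss of the nerve and the operation itself cannot be told apart. Arrays of equal number were taken as the 2 incisors of a mouse. Values are log2 intensities, so that equal ratios of signal give equal differences. Values ran from -0.16 to 13.21 with array medians between 1.48 and 1.54, and values below about 2 are near the low end of the scale, where presence and absence of a transcript cannot be told apart.

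The tissue label was checked against markers. The odontoblast genes Dspp and Col1a1 were near the top of the scale, at 12.07 ± 0.14 and 12.98 ± 0.15 in denervated and 12.25 ± 0.08 and 13.07 ± 0.05 in contralateral incisors (SD, n = 5). Of 9 measured odontoblast markers, 2 (Mepe and Gsc) had a mean below 2. The enamel matrix genes Amelx and Ambn, products of ameloblasts and not of mesenchyme, were also near the top, at 11.96 ± 2.08 and 12.35 ± 1.54 in denervated and 12.86 ± 0.06 and 13.02 ± 0.05 in contralateral incisors. Of 13 measured epithelial markers, 0 had a mean below 2, so that transcripts of both tissues were present. Denervated array 3 stood apart with a mean epithelial marker level of 6.30, against 8.73 to 9.10 in the other denervated and 8.51 to 9.14 in the contralateral arrays. The markers did not all fall there. In mouse 3 Enam differed by -8.77 and Amelx by -4.60, whereas Klk4 and Cldn10 were higher, by 0.39 and 0.23. Denervated array 2 stood apart in the odontoblast markers, at 7.57 against 7.96 to 8.30 in the other denervated and 8.08 to 8.25 in the contralateral arrays, and in myelin markers, at 5.14 against 2.36 to 3.06 in the other denervated and 2.39 to 2.76 in the contralateral arrays. The odontoblast markers did not all fall there either. In mouse 2 Dmp1 differed by -2.55, Phex by -0.99 and Nes by -0.89, whereas Sp7, Ibsp and Mepe were higher, by 0.18, 0.19 and 0.27. Differences of the 8 genes that rest on denervated arrays 2 and 3 are also given without them. For further genes that rest on them the values by mouse or without them are given. In bulk tissue, fewer cells of a type and less RNA per cell cannot be told apart.

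Across the 8 genes, 3 had a higher and 5 a lower mean in denervated incisors, with a median difference of -0.04 beside 0.02 over all genes. The 3 higher ones (Alpl, Slc20a2 and Slc24a4) turned lower when array medians were subtracted. Leaving out 1 array moved the median of the 8 to between -0.080 and -0.0053, and it was 0.0090 with array weights and 0.0038 without mouse 3 in the fit with the block, so that its sign is not settled. None passed limma's test with Benjamini-Hochberg adjustment over all genes, as was the case for every gene measured (0% of 18193 genes, and 0% with the mouse as a block). The smallest adjusted p over all genes was 0.790, or 0.234 with the block. At an unadjusted p under 0.05 without the block, 1 of the 8 was lower (Slc8a3) and 0 were higher, beside 2.11% and 4.1% of all genes. In limma with the block Slc20a1 also had an unadjusted p under 0.05 (0.0216), as 1805 of the 18193 genes had one. The groups overlapped in all 8, while 0.423% of all genes were lower and 0.528% higher without overlap. In each of the 5 mice 1 of the 8 was lower on the operated side (Slc20a1) and 0 were higher, beside 3.8% and 6.58% of all genes.

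**Figure D1:**
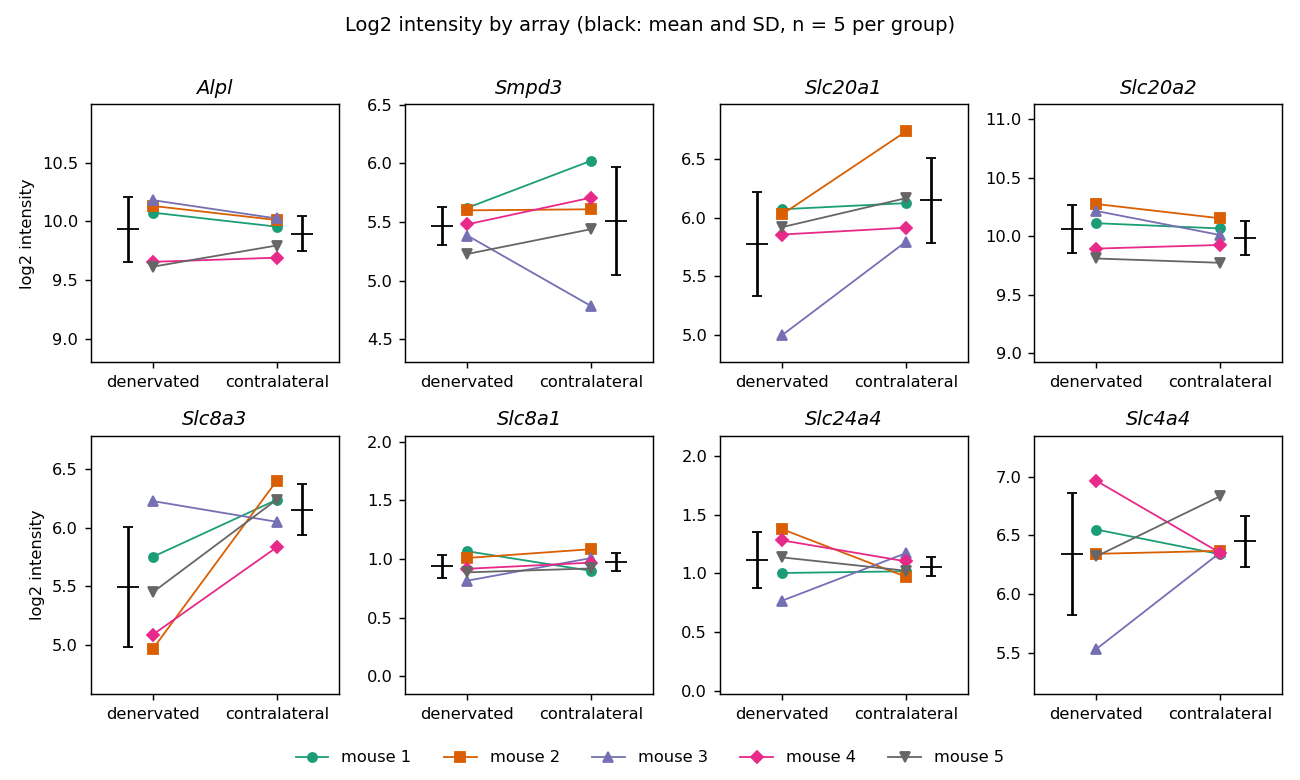
Log2 intensity (vertical axis) of the 8 genes in denervated (left) and contralateral (right) incisors, with a line for each mouse and the mean and SD of each group in black (n = 5 arrays). Every panel spans 2.2 log2 units; the Slc8a3 lines run upward to the contralateral side in 4 of 5 mice, Alpl and Slc20a2 lines are almost flat, and Slc8a1 and Slc24a4 lie near 1.

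Slc8a3 had the largest difference of the 8. It encodes a sodium-calcium exchanger of the plasma membrane that carries calcium out of the cell in exchange for sodium. Its log2 values were 5.75, 4.96, 6.23, 5.09 and 5.45 in denervated incisors 1 to 5, against 6.24, 6.40, 6.05, 5.83 and 6.24 in contralateral incisors 1 to 5. Denervated incisors 1, 2, 4 and 5 all lay below the lowest contralateral value, and denervated incisor 3 lay within the contralateral range. The mean was 5.50 ± 0.51 in denervated and 6.15 ± 0.22 in contralateral incisors (SD, n = 5), and the difference was -0.66 ± 0.22 (SE), which is 0.635 of the contralateral signal on a linear scale. The 95% interval ran from -1.13 to -0.18 without and from -1.11 to -0.20 with the mouse as a block. Limma's unadjusted p was 0.0116, rank 244 of 18193 genes, and the adjusted p was 0.790 (0.422 with the block). Permuting the arrays (exact, two-sided) gave p = 0.0317, where 0.00794 is the smallest possible. Exact sign flips over mice gave p = 0.125, where 0.0625 is the smallest possible.

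Within mice the differences of Slc8a3 were -0.49, -1.44, 0.18, -0.75 and -0.79 in mice 1 to 5. Denervated array 3, of the mouse with the opposite sign, had the highest denervated odontoblast marker level, 8.30, and the lowest epithelial marker level, 6.30. The lowest Slc8a3 value, in denervated array 2, comes with the lowest odontoblast marker level, 7.57. The part of these marker levels in the difference was not tested. Without denervated arrays 2 and 3 the difference was -0.72, and without mice 2 and 3 it was -0.67. Left out singly, the 2 mice moved it in opposite directions. It was -0.46 without mouse 2 and -0.86 without mouse 3 in the fit with the block. Without denervated array 2 it was -0.52, and without denervated array 3 -0.84. Its second probe set lay at 0.62 ± 0.06 in denervated and 0.67 ± 0.09 in contralateral incisors, below 2 on all arrays, and gives no check.

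The start of Slc8a3 is shown with that of Slc20a1, the gene lower in every mouse, and of Alpl, whose difference was close to 0, as the starts of the genes that the comparison turns on. Each is the 250 bases before an annotated RefSeq start in GRCm38.p6, written 5′ to 3′ along the gene, with capitals marking matches on either strand to 6 short motifs: the TATA box (TATAAA), the CCAAT box, the GC box (GGGCGG), an E-box (CACGTG), the core bound by CREB-type factors (TGACGT) and the core bound by Runx factors (TGTGGT). The windows lie at chr12:81333181-81333430 on the minus strand for Slc8a3, inside the span that RefSeq gives the gene, at chr2:129198523-129198772 on the plus strand for Slc20a1 and at chr4:137796385-137796634 on the minus strand for Alpl.
Slc8a3: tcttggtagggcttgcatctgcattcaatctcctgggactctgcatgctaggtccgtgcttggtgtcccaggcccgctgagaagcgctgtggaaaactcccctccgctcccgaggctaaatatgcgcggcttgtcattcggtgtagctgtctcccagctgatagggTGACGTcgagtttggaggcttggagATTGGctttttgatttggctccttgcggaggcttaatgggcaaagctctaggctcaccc
Slc20a1: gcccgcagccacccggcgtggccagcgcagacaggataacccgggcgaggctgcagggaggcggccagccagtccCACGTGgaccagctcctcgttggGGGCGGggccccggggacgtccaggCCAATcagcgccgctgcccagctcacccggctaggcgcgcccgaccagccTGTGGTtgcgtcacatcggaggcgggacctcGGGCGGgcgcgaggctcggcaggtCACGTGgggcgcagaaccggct
Alpl: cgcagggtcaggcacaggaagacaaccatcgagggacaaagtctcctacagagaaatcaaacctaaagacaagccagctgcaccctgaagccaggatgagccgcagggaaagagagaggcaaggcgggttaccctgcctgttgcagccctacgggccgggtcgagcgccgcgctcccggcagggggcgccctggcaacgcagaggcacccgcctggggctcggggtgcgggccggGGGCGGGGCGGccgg

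The Slc8a3 window held 1 TGACGT, beginning 84 bases before the start, and 1 CCAAT on the opposite strand at 59 bases. The Slc20a1 window held 2 CACGTG, 2 GGGCGG, 1 CCAAT and 1 TGTGGT, and no TGACGT. The Alpl window held 2 GGGCGG that overlap by a base and none of the other motifs. Alpl and Slc20a1 each have a second annotated start with other matches: that of Alpl held 1 TATAAA on the opposite strand at 192 bases and no GGGCGG, and that of Slc20a1 1 GGGCGG and none of the other motifs. The same windows of 32851 annotated starts held TGACGT in 6.47%, CACGTG in 6.02%, TGTGGT in 14%, CCAAT in 33.8%, GGGCGG in 32.7% and TATAAA in 12.4%. G and C made up 56% of the bases for Slc8a3, 75.2% for Slc20a1 and 68.4% for Alpl, against a median of 52.4%. Promoters were found for 6 of the 8 genes, and Smpd3 and Slc20a2 are named only. A match is a description of letters.

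The other exchanger genes had means below 2. Slc8a1, the exchanger gene best known from heart muscle, lay between 0.82 and 1.07 (median 0.92) in denervated and between 0.90 and 1.08 (median 0.97) in contralateral incisors, and its 4 probe sets all had means below 1. Slc24a4 encodes an exchanger that also moves potassium and that human enamel needs. It lay between 0.77 and 1.38 (median 1.14) in denervated and between 0.97 and 1.17 (median 1.02) in contralateral incisors, on its only probe set. Differences at such levels, -0.04 (95% interval -0.19 to 0.12) and 0.06 (-0.18 to 0.30) in limma's fit, are not informative on the transcript. The low Slc24a4 signal was found in samples rich in Amelx and Ambn. Amtn, Klk4 and Odam, of the same epithelial marker list, had means over all arrays of 6.79, 5.01 and 4.54. In denervated array 3 Amtn and Odam were at 1.89 and 1.45. The relation of Slc24a4 to these genes or to a stage of enamel formation was not tested.

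Slc20a1 was the gene lower in every mouse. It encodes PiT-1, a sodium-phosphate cotransporter of the cell surface. Its log2 values were 6.07, 6.03, 5.00, 5.86 and 5.92 in denervated incisors 1 to 5, against 6.13, 6.74, 5.80, 5.92 and 6.17 in contralateral incisors 1 to 5. The denervated values lay close together except for incisor 3, the contralateral values except for incisor 2, and the groups overlapped. The means were 5.78 ± 0.44 in denervated and 6.15 ± 0.36 in contralateral incisors (SD, n = 5), and the difference was -0.37 ± 0.22 (SE; 95% interval -0.86 to 0.12), with a limma adjusted p of 0.804. With the mouse as a block the interval was -0.67 to -0.07, the unadjusted p 0.0216 and the adjusted p 0.447. Exact sign flips gave 0.0625, the smallest p that 5 mice allow, and an exact permutation of the arrays 0.214.

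The difference of Slc20a1 was largest in mice 2 and 3. Within mice it was -0.05, -0.71, -0.80, -0.06 and -0.25. It was -0.18 without denervated array 3, -0.23 without contralateral array 2, -0.20 without denervated arrays 2 and 3, and -0.12 without mice 2 and 3. Denervated array 3 was also the array low in epithelial markers, 6.30 against at least 8.51 in every other array; whether this bears on Slc20a1 was not tested. The remaining probe sets of Slc20a1 had means of 1.03 and 0.92 over the 10 arrays and give no check.

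Slc20a2 and Alpl were high and nearly level between the sides, and differed between mice. Slc20a2 encodes PiT-2, the second cotransporter of the family. Its log2 values were 10.11, 10.27, 10.21, 9.89 and 9.81 in denervated incisors, against 10.07, 10.15, 10.01, 9.93 and 9.77 in contralateral incisors 1 to 5. Both sides of mice 1, 2 and 3 were above 10 and both sides of mice 4 and 5 below it. The difference was 0.08 ± 0.11 (SE), with an interval of -0.16 to 0.31 (block fit -0.08 to 0.23). Its second probe set had 5.44 ± 0.32 in denervated and 5.41 ± 0.33 in contralateral incisors (SD, n = 5).

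For Alpl, too, both sides of mice 1, 2 and 3 lay above both sides of mice 4 and 5. Its log2 values were 10.07, 10.13, 10.18, 9.65 and 9.61 in denervated incisors, against 9.95, 10.01, 10.02, 9.69 and 9.79 in contralateral incisors 1 to 5. The mean of a mouse's incisors ran from 9.67 to 10.10, a range of 0.43, whereas its sides differed by at most 0.18 in any mouse. For Slc20a2 the range between mice was 0.42 and the largest difference between sides 0.21. The range between mice was also the larger for Smpd3 (0.74 against 0.60) and Slc20a1 (0.99 against 0.80). It was the smaller for Slc8a3 (0.68 against 1.44), Slc4a4 (0.71 against 0.82), Slc24a4 (0.22 against 0.41) and Slc8a1 (0.14 against 0.19). The difference of Alpl was 0.04 ± 0.13 (SE), with an interval of -0.25 to 0.32 without and -0.14 to 0.21 with the block. Pearson's r between Alpl and Slc20a2 over the 10 arrays was 0.89. This is a description, since the arrays come from 5 mice in pairs.

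**Figure D2:**
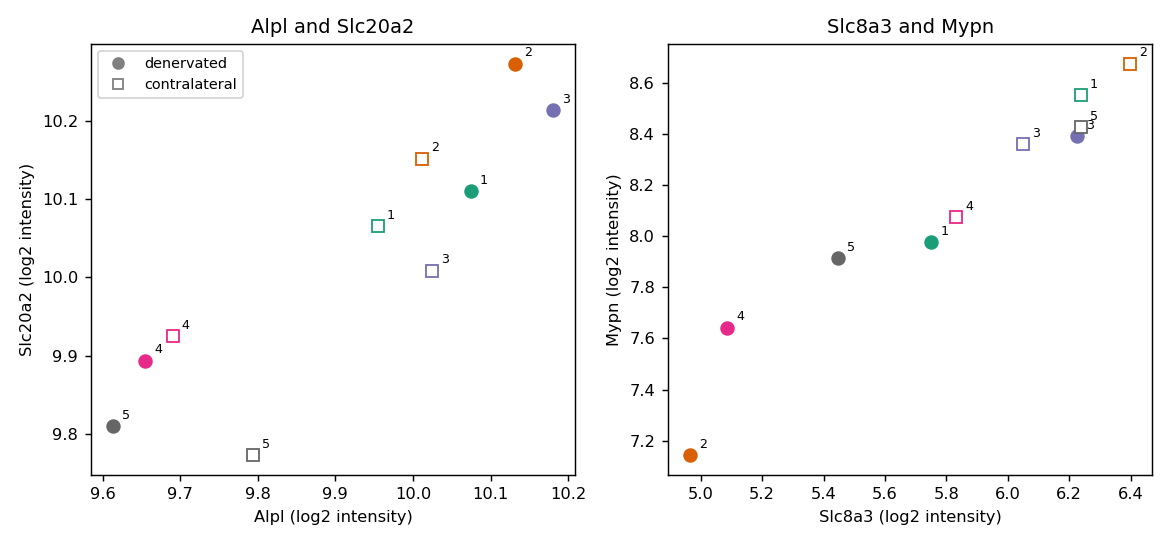
Log2 intensities of Alpl against Slc20a2 (left) and of Slc8a3 against Mypn (right) in the 10 arrays; filled circles are denervated and open squares contralateral incisors, and numbers and colours mark the mouse. In the left panel both incisors of mice 4 and 5 lie at the lower left and those of mice 1 to 3 at the upper right; in the right panel denervated incisors 1, 2, 4 and 5 lie at the lower left of the contralateral incisors.

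Smpd3 encodes neutral sphingomyelinase 2, which releases phosphocholine from sphingomyelin and whose loss in mice impairs the mineralization of bone and dentin. Its log2 values were 5.62, 5.60, 5.38, 5.48 and 5.23 in denervated incisors, against 6.02, 5.61, 4.78, 5.71 and 5.44 in contralateral incisors 1 to 5. The denervated values all lay within the contralateral range, whose ends were contralateral incisors 3 and 1. The difference was -0.05 ± 0.19 (SE; interval -0.47 to 0.37), and it was -0.23 without contralateral array 3 and 0.08 without contralateral array 1. Its probe set at 1.59 ± 0.07 in denervated and 1.76 ± 0.15 in contralateral incisors was lower in all 5 mice but had means below 2, and that at 2.30 ± 0.20 and 2.32 ± 0.24 was lower in 3.

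Slc4a4 encodes the electrogenic sodium-bicarbonate cotransporter NBCe1, mutated in a human syndrome with enamel defects. Its log2 values were 6.55, 6.34, 5.53, 6.96 and 6.32 in denervated incisors, against 6.34, 6.37, 6.35, 6.35 and 6.83 in contralateral incisors 1 to 5. Contralateral incisors 1 to 4 were almost equal, and denervated incisors spread both above and below them, with an SD of 0.52 against 0.22. The difference was -0.11 ± 0.22 (SE; interval -0.59 to 0.38). The lowest value, in denervated array 3, comes with the low epithelial marker level there, and the difference was 0.10 without this array; their relation was not tested.

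Of the 5 Slc4a4 probe sets, 4 were above a mean of 2, and these differed in the size of their differences. In order of their mean level, the differences of the 4 in mouse 3 were -0.82, -1.25, -0.52 and -0.79, all lower in the denervated incisor. In mouse 2 they were -0.03, -1.12, -0.33 and -0.25. The log2 value of the second of these minus that of the first, both read on the same array, was -1.30 in denervated array 2 and -0.63 in denervated array 3. It lay between -0.12 and -0.06 in the other denervated arrays and between -0.21 and -0.11 in the contralateral arrays. The signals of these probe sets thus stood in another ratio in 2 denervated incisors; the pattern was picked after its values were seen, and which transcript forms the probes detect was not analysed here.

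**Figure D3:**
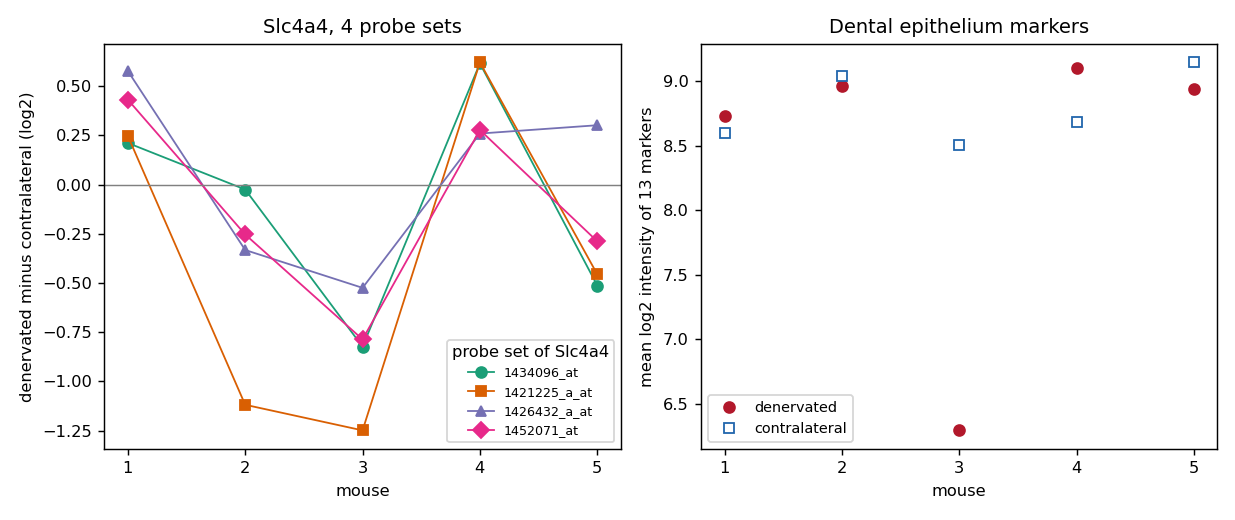
Left, denervated minus contralateral log2 difference (vertical axis) in mice 1 to 5 for the 4 Slc4a4 probe sets with a mean above 2; right, mean log2 intensity of 13 dental epithelium markers in the denervated (filled) and contralateral (open) incisor of each mouse. The probe set of second highest mean stands apart in mouse 2 at -1.12, and the epithelial level of denervated incisor 3 is 6.30.

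**Figure D4:**
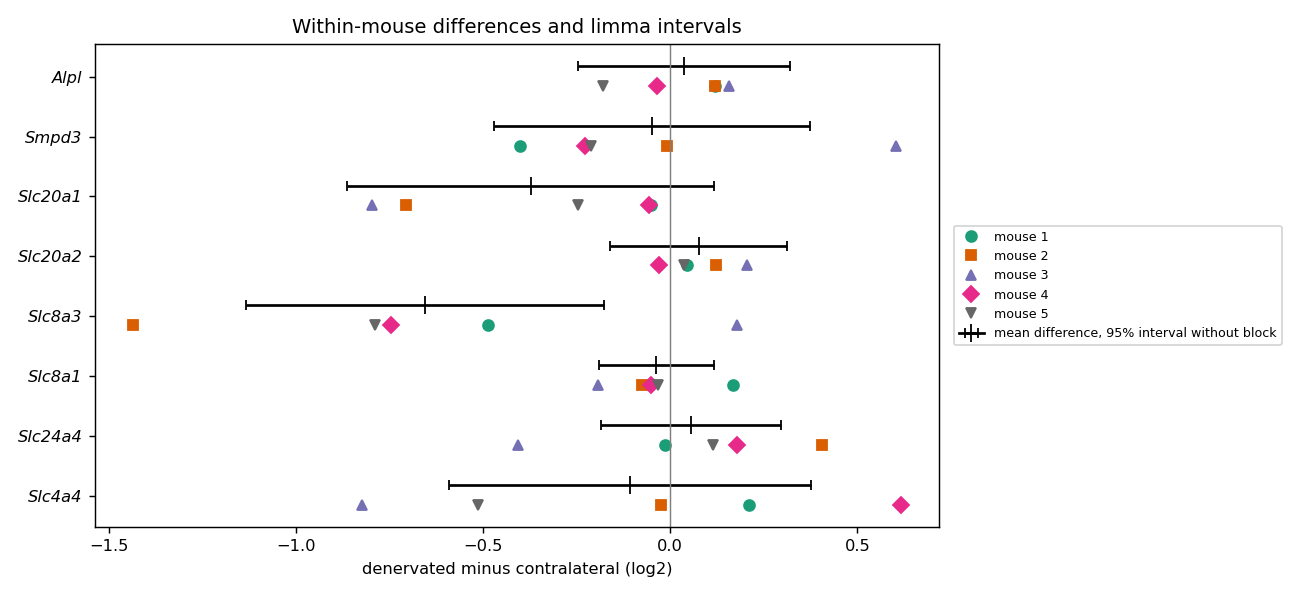
Denervated minus contralateral log2 difference (horizontal axis) of the 8 genes: coloured symbols are the 5 mice, and black bars the mean with limma's 95% interval without the block. The interval of Slc8a3, -1.13 to -0.18, leaves out 0, and the intervals of the other 7 genes include it. With the mouse as a block, not drawn, the interval of Slc20a1, -0.67 to -0.07, also left out 0.

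Further genes of the same processes were read from 4 lists, and 0 of their members passed limma's test in either direction, with or without the block. Of 30 measured genes of phosphate and pyrophosphate metabolism, 14 were higher and 16 lower on average, with a median difference of -0.01; 5 had an unadjusted p under 0.05, as had 6.21% of all genes. Chka, whose product phosphorylates choline, had 7.77 ± 0.23 in denervated and 7.38 ± 0.11 in contralateral incisors (SD, n = 5), which differ by 0.38 ± 0.11 (SE), higher in 5 of 5 mice. Fam20c, which encodes the kinase that phosphorylates secreted matrix proteins, had 7.35 ± 0.23 against 7.75 ± 0.23, a difference of -0.40 ± 0.13, lower in 4 of 5. Without mice 2 and 3 the differences were 0.25 for Chka and -0.20 for Fam20c. Both had a limma adjusted p of 0.790. The type II phosphate cotransporter genes Slc34a1, Slc34a2 and Slc34a3, named as a whole family, had denervated means of 0.51, 1.83 and 0.90 and contralateral means of 0.60, 1.69 and 0.95, all below 2.

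The following genes of the phosphate list were named after their values were seen. Vdr, the vitamin D receptor gene, was higher by 0.44, 0.55, 0.51, 0.43 and 0.30 in mice 1 to 5. Its values of 6.47, 6.42, 6.00, 5.72 and 5.60 in denervated incisors and 6.03, 5.87, 5.49, 5.29 and 5.30 in contralateral incisors fall in almost the same order of mice on both sides. Its difference of 0.45 ± 0.20 (SE) had a limma adjusted p of 0.790 without and 0.234 with the mouse as a block, where it ranked 17 of 18193. Enpp3, an ecto-nucleotide pyrophosphatase gene of the Enpp family, was higher in 5 of 5 mice by 0.24 to 1.12. Nt5e, whose product turns AMP into adenosine and phosphate, differed by -0.53 ± 0.19 (SE), lower in 4 of 5 mice, and by -0.32 without mouse 2. Phex, mutated in X-linked hypophosphatemia, had 11.32 ± 0.40 in denervated and 11.60 ± 0.12 in contralateral incisors, lower in 5 of 5 mice. Its difference was -0.99 in mouse 2 and lay between -0.18 and -0.03 elsewhere. Phex is itself among the odontoblast markers, so that their low mean in denervated array 2 includes it. None passed after adjustment.

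Of 31 measured genes of calcium transport and binding, 9 were higher and 22 lower, with a median of -0.04. Without mice 2 and 3, 15 were higher and 16 lower, with a median of -0.01. An unadjusted p under 0.05 was found for 1 of the 31, against 6.21% of all genes. Atp2b1, a plasma membrane calcium pump gene, had 9.66 ± 0.47 in denervated and 10.07 ± 0.08 in contralateral incisors, lower in 5 of 5 mice, with differences of -1.25 in mouse 2 and -0.26 to -0.07 elsewhere. Orai3, a store-operated calcium channel gene, had 4.92 ± 0.14 against 4.68 ± 0.17, higher in 5 of 5, and its difference of 0.24 was 0.10 without mice 2 and 3. Their limma adjusted p was 0.790. Calb1, the calbindin gene and an abundant ameloblast transcript, chosen after its values were seen, had a difference of -4.96 in mouse 3 and between -0.31 and 0.28 elsewhere, beside the low epithelial markers of that array. The related exchanger genes measured, named as a whole family, were Slc8a2, Slc8b1, Slc24a1, Slc24a2 and Slc24a3, with means of 1.38, 3.24, 0.75, 2.86 and 7.13 in denervated and 1.42, 3.36, 0.76, 3.10 and 7.51 in contralateral incisors. The difference of Slc24a3, -0.38, rested on mouse 3 at -1.28, and it was -0.16 without that mouse and -0.062 without mice 2 and 3.

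Of 16 measured genes of bicarbonate and proton transport, 8 were higher and 8 lower, with a median of 0.00. Without mice 2 and 3, 10 were higher and 6 lower. An unadjusted p under 0.05 was found for 1 of the 16, against 6.21% of all genes. That gene was Car12, a carbonic anhydrase gene of the cell surface, at 7.36 ± 0.19 in denervated and 6.83 ± 0.41 in contralateral incisors, a difference of 0.54 ± 0.18. It was higher by 0.23 to 0.86 in 5 of 5 mice, with a limma adjusted p of 0.790 (0.305 with the block). Car13, a cytosolic carbonic anhydrase gene, differed by -0.44 ± 0.32, by -0.20 without mouse 3 and by -0.048 without mice 2 and 3. Of 11 measured genes of mineral-binding matrix and vesicle proteins 3 were higher and 8 lower, with a median of -0.06. Anxa6, an annexin gene of matrix vesicles, differed by 0.22 ± 0.09, higher in 5 of 5 mice, and by 0.12 without mouse 2. Dspp differed by -0.18 ± 0.08, lower in 4 of 5.

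For each of the 8 genes, the 2 genes most like it were taken from 7919 genes with a mean of at least 4 by Pearson's r over the 10 arrays. The highest values of so many carry no test, and the arrays share mice. Slc8a3 was most like Mypn (r = 0.97, Spearman's rho 0.99), a gene of a sarcomere-associated protein, and Rcan2 (0.96, rho 0.89), a calcineurin regulator gene. Without the 2 arrays of most extreme Slc8a3 value, r was 0.96 and 0.94. Mypn was 7.81 ± 0.46 in denervated and 8.42 ± 0.23 in contralateral incisors and lower in 4 of 5 mice, again all but mouse 3. The 10 skeletal muscle markers averaged at most 1.08 in any denervated and 1.22 in any contralateral array. Their relation to Mypn was not tested. Rcan2 was 9.17 ± 0.35 against 9.68 ± 0.19, lower in 5 of 5 mice. Their limma adjusted p was 0.790.

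Alpl was most like Camk2g (r = 0.98) and Prtg (0.96), and Slc20a2 most like Haghl and Scand1 (0.98 for both). Slc20a1 was most like Klc3 (0.96) and Esrp1 (0.94), an epithelial splicing regulator gene, and without its 2 extreme arrays r was 0.82 and 0.70. Slc4a4 was most like Klhl25 and Stk26 (0.95 for both), and Smpd3 most like Taf5l (0.94) and Smarcal1 (0.91), for which r without the extreme arrays was 0.72 and 0.78. The nearest genes of Slc8a1 were Myh14 (0.90) and Abcc1 (0.88) and those of Slc24a4 Wdr37 and Sh3d19 (0.86 for both), matched to values below 2.

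Markers of other cells were read in the same arrays; none passed limma's test, and their part in the results above was not tested. Macrophage markers, led by Csf1r and Lyz2, averaged 5.74 to 6.48 in denervated and 5.49 to 5.71 in contralateral arrays, with 10 of 10 higher on average and 9 of 10 without mice 2 and 3. Their median difference was 0.53, and 0.26 without these mice. In all 5 mice 9 of the 10 were higher, as were 6.58% of all genes. Pericyte and smooth muscle markers, led by Rgs5 and Pdgfrb, averaged 5.40 to 6.41 and 5.20 to 5.51. On average 9 of 10 were higher, 6 of 10 without mice 2 and 3, and 5 of 10 were higher in all 5 mice. Myh11, counted among these 5, was level in mouse 5, with a difference of 6.86e-06. Endothelial markers, led by Vwf and Emcn, averaged 4.44 to 5.35 and 4.58 to 4.93. All 10 were higher on average, but 3 of 10 without mice 2 and 3, and 0 were higher in all 5 mice. Osteoblast and osteocyte markers, led by Ptprz1 and Sp7, averaged 4.21 to 4.65 and 4.52 to 4.85, with 2 of 7 (Sost and Fgf23) below 2. Osteoclast markers, led by Ctsk and Mmp9, averaged 2.69 to 3.56 and 2.51 to 3.06, with 4 of 7 below a mean of 2. Of the myelin list, led by Pmp22 and Mbp, 4 of 7 had a mean below 2, as had 9 of 10 skeletal muscle markers, led by Mylpf and Myh4, and 3 of 4 red blood cell markers, led by Hbb-b2 and Slc4a1.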

How the data were processed

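Total RNA of 10 incisors was measured on oligonucleotide arrays. The authors deposited a log2 intensity for each probe set, made with RMA, per the submitters' processing notes, which give no version; further steps are not given in the sources used here. That they are log2 was inferred from their range. They were used as deposited, without detection calls. Of 45101 probe sets 64 controls were left out, and 34945 of the other 45037 name 1 gene, 18193 genes in all, of which 18032 matched RefSeq by Entrez identifier.

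Sides were compared with limma 3.58.1 (lmFit, eBayes) in R 4.3.3 and Benjamini-Hochberg adjustment over 18193 genes, threshold 0.05, without and with the mouse as a block. Every difference is denervated minus contralateral. Deviations from the group means correlated at 0.18 to 0.57 in the 5 same-numbered pairs and at -0.41 to 0.22 in the 20 others. Of the 5 denervated arrays, 4 were closest to the contralateral array of their own number. Equal numbers were taken as mice, though the pairing is less sure for the remaining array. The design text names 5 mice with both incisors. Nothing else says that the arrays are separate animals. Exact tests were two-sided (252 arrangements of arrays). The fit was tested on simulated data.

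Genes named beyond the members are the 2 of smallest p in each related list and the 2 most like each member. To these come the 2 highest of each marker list and a few picked by their values, marked as such. The Slc34a and exchanger families, and other marker genes named after their values were seen, lie outside that rule. Values of list genes without mouse 2, mouse 3 or both are means of within-mouse differences, added after seeing the data. The members and lists were chosen with earlier results of these data known. Promoters are from RefSeq (GRCm38.p6). Precision is limited by having 5 arrays a side (median standard error 0.10).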

Additional observations from a re-analysis of the deposited data

Results flagged for a closer look

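In 16 groups of 5 arrays (8 genes on 2 sides), 2 held an array whose gap to the nearest other exceeded Dixon's 95% critical value of 0.71 of the range; chance flags about 1 group in 20. Slc20a1 was at 5.00 in denervated array 3, with a gap of 0.80 of the range. Slc4a4 was at 6.83 in contralateral array 5, with a gap of 0.941 of the range.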

How the results depend on the processing

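Under all 25 alternatives Slc8a3 and Slc20a1 were lower in denervated incisors, by differences of -0.86 to -0.36 and -0.47 to -0.10; the values nearest 0 came from averaging a gene's probe sets, which brings in probe sets below 2. The 8 genes gave 0 calls under each alternative. The paired fit, with a replicate block for the mouse, left each difference as it was and also gave 0 calls. Leaving out arrays or mice gave 0 to 1 call over all genes, the single call being Fcna (adjusted p 0.0270 in limma with the block, without mouse 4). Subtracting array medians moved the median difference of all genes to -0.08 and turned Alpl to -0.062, Slc20a2 to -0.023 and Slc24a4 to -0.043, which are above that shift. It gave 2 genes with the same direction in all 5 mice, and averaging probe sets gave 0 and turned Slc8a1 to 0.030. Array weights turned Slc4a4 to 0.032. Without denervated arrays 2 and 3 Alpl was -0.11, Slc20a2 -0.047 and Slc4a4 0.16, and without mice 2 and 3 Alpl was -0.032, Slc8a1 0.027 and Slc4a4 0.10. Leaving out 1 array or 1 mouse gave -0.026 to 0.12 for Alpl, -0.032 to 0.17 for Slc24a4, -0.29 to 0.10 for Slc4a4, -0.088 to 0.0017 for Slc8a1 and -0.23 to 0.078 for Smpd3. None of the turned values was called, and the causes were not tested. Slc8a1 and Slc24a4 have no value where genes with a mean under 4 are left out.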
